A study of Homo sapiens with 2 samples.

Results

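Surface proteins of plasma cells that are antibody or cell therapy targets in multiple myeloma, encoded by the 8 genes GPRC5D, SDC1, CD38, SLAMF7, FCRL5, LY9, CD48 and CD46, were followed by their transcripts in MM.1S cells. MM.1S is a human myeloma line, so its cells descend from the tumour of one patient. The arms were MM.1S cells cultured with plasmacytoid dendritic cells (pDCs), the dendritic cells known for making type I interferon, and MM.1S cells cultured alone. Each arm gave total RNA for 1 Affymetrix HG-U133 Plus 2.0 array, so no value has a replicate error, no test was possible, and "higher" and "lower" describe these arrays. The labels give neither the source of the pDCs nor the length of the culture nor whether pDCs were removed before RNA was taken. The members were chosen by symbol: all probe sets annotated with exactly 1 gene symbol, where that symbol is one of the 8. This gave 8 genes of 19775 with such a probe set, and 20 probe sets of 54675 on the array. No probe set named a member among several symbols.

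SDC1 encodes syndecan-1 (CD138), a heparan sulfate proteoglycan by which plasma cells are recognised and sorted. CD38 is an ectoenzyme that consumes NAD and the target of daratumumab and isatuximab. SLAMF7 (target of elotuzumab), LY9 (CD229) and CD48 are receptors of the SLAM family, whose members bind each other or themselves between leukocytes. FCRL5 is an Fc receptor-like protein of B-lineage cells, GPRC5D an orphan G-protein-coupled receptor of plasma cells bound by talquetamab, and CD46 a cofactor for the breakdown of complement on the cell's own surface. A transcript level does not measure the amount of protein on the surface.

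Positions are those of RefSeq genes on GRCh38.p14, given as chromosome and first and last base. GPRC5D lies on chromosome 12 (12940575 to 12952170), SDC1 on chromosome 2 (20200797 to 20225475) and CD38 on chromosome 4 (15778328 to 15853232). The other 5 members lie on chromosome 1. FCRL5 is at 157513377 to 157552515, CD48 at 160678746 to 160711822, SLAMF7 at 160739057 to 160754821, LY9 at 160796174 to 160828255 and CD46 at 207752038 to 207795516. CD48, SLAMF7 and LY9 are thus neighbours within the SLAM gene cluster.

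The promoters of 3 genes are shown because GPRC5D had the largest positive and CD38 the largest negative ratio among members above the floor on both arrays, while SDC1 is the defining plasma cell gene. Each run gives the 250 bases before the annotated start on the gene's own strand, from RefSeq sequence of GRCh38.p14. Capitals mark matches on either strand to 1 of 5 motifs: the interferon response element core (GAAANNGAAA), the ETS-IRF composite element (GGAANNGAAA), the octamer (ATGCAAAT), the GC box (GGGCGG) and the MAF site core (TGCTGA). The GPRC5D run is chr12:12952171-12952420 on the minus strand, the CD38 run is chr4:15778078-15778327 on the plus strand and the SDC1 run is chr2:20225476-20225725 on the minus strand, 1 of 2 annotated starts.
GPRC5D: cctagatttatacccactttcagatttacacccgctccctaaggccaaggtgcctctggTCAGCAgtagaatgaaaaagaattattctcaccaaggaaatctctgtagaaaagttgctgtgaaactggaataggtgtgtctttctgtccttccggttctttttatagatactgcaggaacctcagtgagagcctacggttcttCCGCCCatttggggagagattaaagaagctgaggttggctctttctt
CD38: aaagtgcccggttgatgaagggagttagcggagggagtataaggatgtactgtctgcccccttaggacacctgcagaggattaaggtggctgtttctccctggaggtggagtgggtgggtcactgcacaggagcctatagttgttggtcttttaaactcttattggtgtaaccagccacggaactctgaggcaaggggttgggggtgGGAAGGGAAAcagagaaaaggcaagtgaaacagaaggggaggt
SDC1: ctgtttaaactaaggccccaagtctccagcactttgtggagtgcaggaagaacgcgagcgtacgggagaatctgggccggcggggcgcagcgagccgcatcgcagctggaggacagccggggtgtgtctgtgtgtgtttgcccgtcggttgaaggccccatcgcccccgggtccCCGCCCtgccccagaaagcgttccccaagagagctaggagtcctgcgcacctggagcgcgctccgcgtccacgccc

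The GPRC5D promoter had a MAF site core 191 to 186 bases before the start and a GC box 47 to 42 bases before it. The CD38 promoter had an ETS-IRF element 43 to 34 bases before the start, and the SDC1 promoter had a GC box 76 to 71 bases before it. Among 34788 different promoter windows of this length, 13.98% held the MAF site core, 42.6% the GC box and 2.41% the ETS-IRF element. The interferon response element core (3.02% of windows) and the octamer (1.62%) had no match in the windows of the 6 members found in the table. Members differed in base composition: G and C made up 44.4% of the GPRC5D window, 52.4% of the CD38 window and 66.4% of the SDC1 window shown, against a median of 58.0% over all windows. A match describes the letters only, and binding was not measured.

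Signals were scaled to a common trimmed mean of 500.1 on both arrays. The median signal of each array, 115.9 with pDCs and 124.0 alone, served as a floor, and a ratio is log2 of the signal with pDCs over the signal alone after lower signals were set to the floor. Where 1 of the signals was under its floor, the ratio is a bound. Of the 20 member probe sets, 16 were above the floor on both arrays, 2 only in MM.1S cells alone, and 2 on neither. The 2 unmeasured probe sets both belonged to FCRL5.

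GPRC5D transcripts were 4.19-fold higher in the co-culture, 2 of 3 SLAMF7 probe sets were moderately higher there, and CD38 was moderately lower. FCRL5 was 1.35-fold lower on its only probe set above both floors. SDC1, LY9, CD48 and CD46 differed by less than 1.5-fold on each of their probe sets. At a threshold of 2-fold, 2 of 18 member probe sets were higher with pDCs (1 of GPRC5D and 1 of SLAMF7), while 4.19% of 25795 probe sets above the floor on at least 1 array were. Of the members 0 were 2-fold lower, against 4.67% of all those probe sets. The median log2 ratio was 0.14 over the 18 member probe sets and -0.02 over all 25795. Of the 18, 11 were positive, and of all probe sets 48.4% were. Ratios within 1.5-fold were found for 13 of the 18 members' probe sets and for 70.9% of all probe sets.

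**Figure D1:**
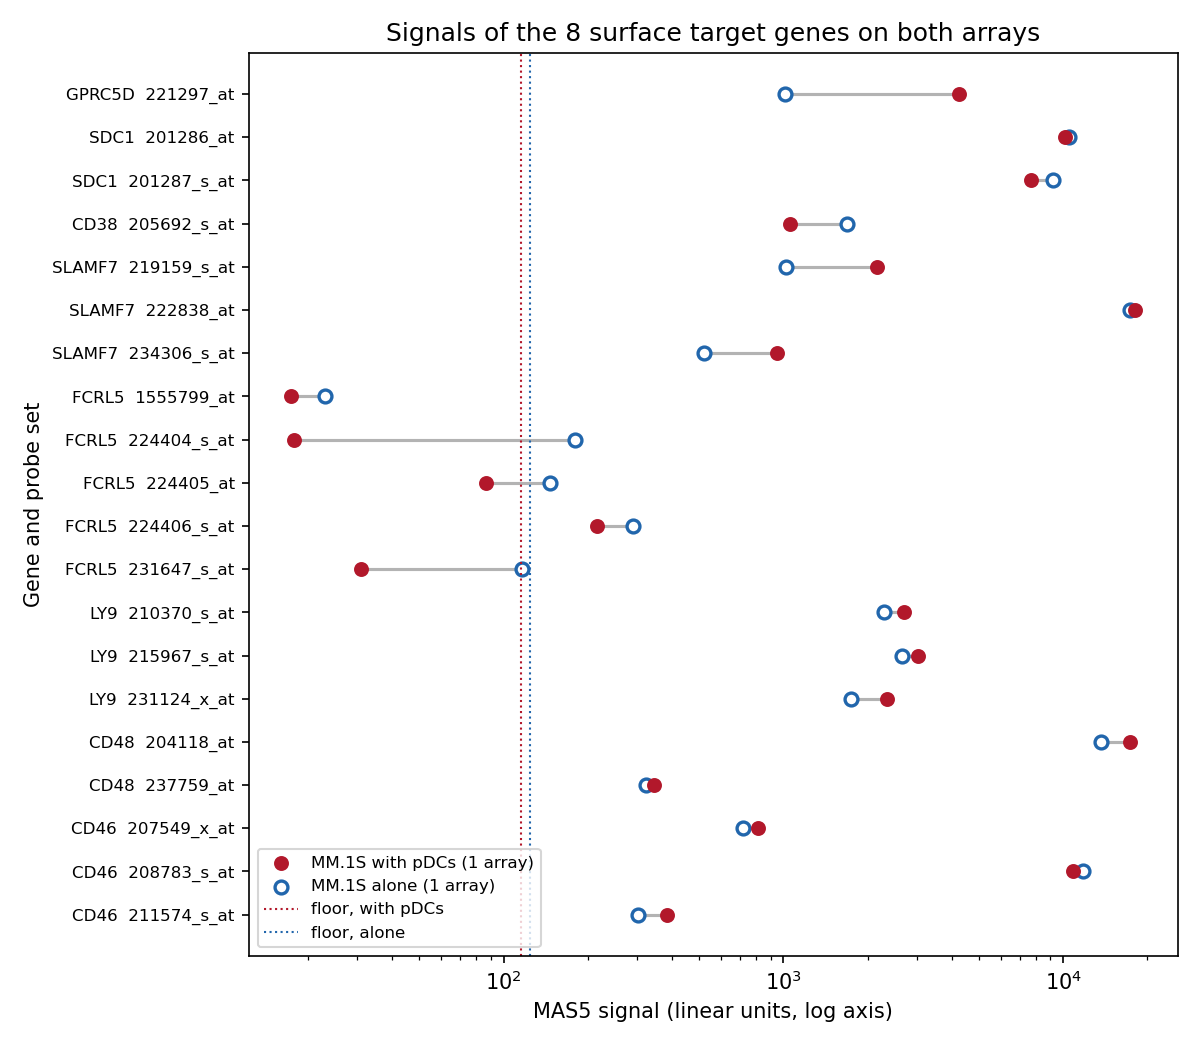
MAS5 signal (log axis) of each of the 20 probe sets of the 8 genes, with filled points for MM.1S with pDCs, open points for MM.1S alone (1 array each) and dotted lines at the floors of 115.9 and 124.0. The widest gap among probe sets above both floors is that of GPRC5D, at 4255 with pDCs and 1016 alone, and 4 of the 5 FCRL5 probe sets lie below the floor with pDCs.

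The receptor GPRC5D was measured by 1 probe set. Its signal was 4255 in MM.1S cells with pDCs, against 1016 in MM.1S cells alone. The ratio was 4.19-fold (log2 2.07), and only 0.105% of all probe sets above the floor had a higher one. No other probe set of this gene was there to set beside it. Its paralogues were close to or below the floor. GPRC5B had 173 with pDCs and 136 alone (log2 0.34), with bounds of -0.62 or lower and -0.53 or lower on probe sets above the floor only in MM.1S cells alone, and GPRC5C had 82.2 and 94.3 on its brightest probe set. GPRC5A, named after its values were seen, had 38.2 with pDCs and 30.7 alone. On its brightest probe set, GPRC5B was the only one of these 3 genes above the floor, and it was not past 2-fold.

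CD38, the NAD-consuming ectoenzyme, was also measured by 1 probe set, whose signal was 1060.2 with pDCs and 1686 alone. This is a log2 ratio of -0.67, or 1.59-fold lower, short of 2-fold, and 12.1% of all probe sets had a lower ratio. Of 8 related surface enzymes and receptors that handle NAD and adenosine and had a probe set, 5 were above the floor. Of these, 3 had a positive and 2 a negative ratio, while 46.7% of all genes had a positive one. ENPP1 and ENPP3, the negative ones, were under the floor with pDCs on their brightest probe sets, so the filter fixed their sign. The 3 above both floors, NT5E, ADA and ENTPD1, were positive. All but NT5E are named here after their values were seen. NT5E (CD73), which makes adenosine from AMP, was the only one with a ratio or bound past 2-fold. Of all genes 3.16% were 2-fold higher. On its brightest probe set NT5E had 519.5 with pDCs against 238 alone, and on its others above the floor 421 against 155 and 605 against 129. All 3 NT5E probe sets above the floor were therefore more than 2-fold higher in co-culture, with log2 ratios of 1.13, 1.44 and 2.23. BST1, the paralogue of CD38 named after its values were seen, had 4.05 with pDCs and 10.6 alone, far under the floor.

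SDC1 differed little. Its probe set 201286_at had 10177 with pDCs and 10503 alone (log2 -0.05), and 201287_s_at had 7687 and 9177 (log2 -0.26). Both were slightly lower in co-culture. Among syndecan relatives and the enzymes that build, trim or shed heparan sulfate, 19 of 20 genes with a probe set were above the floor. Of these, 8 had a positive and 11 a negative ratio, with a median of -0.04. On the brightest probe sets 0 ratios or bounds were past 2-fold, while 3.16% of all genes were 2-fold higher and 4.51% 2-fold lower. GLCE, named after its values were seen, gave only a bound, of 0.08 or higher (131 with pDCs, 57.7 alone). SULF2, which removes sulfate groups from heparan sulfate outside the cell, had 14353 with pDCs and 14759.5 alone, a ratio of -0.04 that turned to 0.03 after quantile normalization and 0.02 after loess. SDCBP (syntenin), which binds the cytoplasmic tail of syndecans, had 6528 with pDCs and 3889 alone (log2 0.75).

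Among the SLAM receptors SLAMF7, LY9 and CD48, all 8 probe sets had a positive ratio, as did 48.4% of all probe sets above the floor. Of the 8, 1 was past 2-fold, while 4.19% of all probe sets were 2-fold higher. The 8 probe sets read only 3 genes on the same pair of arrays, so they are not 8 separate results. By brightest probe set the log2 ratios were 0.07 for SLAMF7, 0.19 for LY9 and 0.35 for CD48. SLAMF7 had 2154 with pDCs and 1018 alone on 219159_s_at (2.12-fold), and 949 and 519 on 234306_s_at (1.83-fold). Its remaining probe set, 222838_at, had 18093 with pDCs and 17260.4 alone, a log2 ratio of only 0.07. The SLAMF7 ratios thus spanned 1.01 log2 units, wider than in 74.0% of the 1237 genes with 3 probe sets above both floors, whose median span was 0.70. Which SLAMF7 transcripts each probe set detects was not examined.

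LY9 was steadier. Its signals were 2697 with pDCs and 2291 alone on 210370_s_at, 3024 and 2649 on 215967_s_at, and 2349.6 and 1747 on 231124_x_at. The log2 ratios of 0.24, 0.19 and 0.43 spanned 0.24, and 10.5% of genes with 3 probe sets had a narrower span. CD48, the ligand of CD244 and a protein anchored by glycosylphosphatidylinositol, had 17346 with pDCs and 13649 alone on 204118_at (log2 0.35). On 237759_at CD48 had 346 and 322 (log2 0.10). Neither LY9 nor CD48 reached 1.5-fold on any probe set.

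The rest of the SLAM cluster was dim or mixed, and its genes are named here by position, after their values were seen. In chromosomal order, SLAMF8 and SLAMF9 were below the floor on both arrays. SLAMF6 had 759.8 with pDCs and 589 alone (log2 0.37). CD84 had 278 and 148 on its brightest probe set (log2 0.91), but from -0.95 or lower up to 0.39 or higher on its 4 others above the floor on 1 array. SLAMF1 had 90.9 with pDCs, under the floor, and 144 alone, and CD244, which lies beyond LY9, was below the floor on both arrays. With the adaptors, kinase and phosphatases of SLAM signalling, 8 of 12 genes of this list were above the floor, 4 positive and 4 negative. On the brightest probe sets 0 were past 2-fold, but SH2D1A gave only a bound, of -0.985 or lower (67.8 with pDCs, 230 alone). On other probe sets above the floor, FYN ran from -0.48 or lower up to 1.16 or higher, and INPP5D had 1.14. These 3 genes too are named after their values were seen. The phosphatases PTPN6 (SHP-1) and PTPN11 (SHP-2) had log2 ratios of -0.08 (6503 with pDCs, 6869 alone) and -0.17 (3419 with pDCs, 3848 alone) on their brightest probe sets. The 3 other PTPN11 probe sets above the floor were positive, and the one above both floors had 424 with pDCs and 207 alone (log2 1.04).

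**Figure D2:**
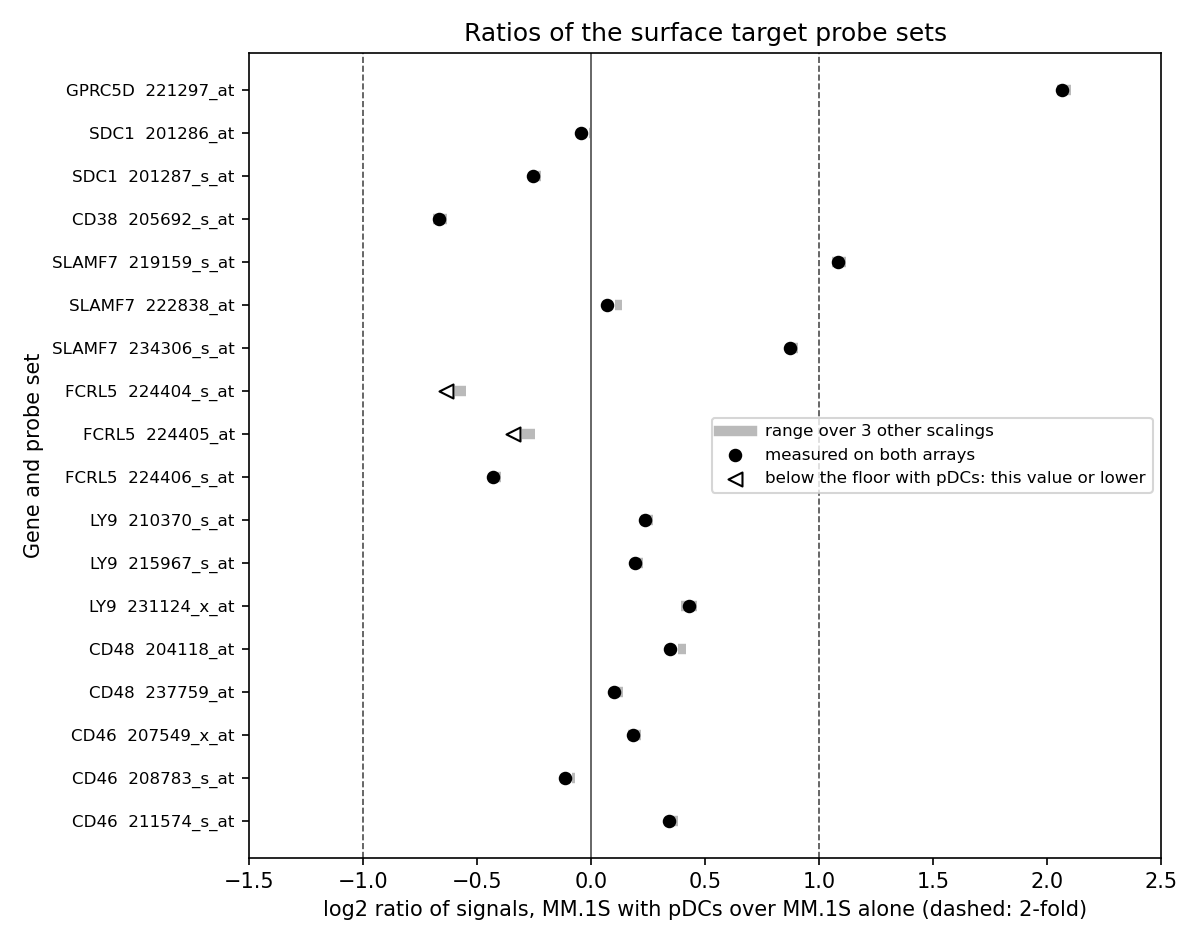
Log2 ratio of signals, MM.1S with pDCs over MM.1S alone, for the 18 member probe sets above the floor on at least 1 array, with grey bars for the range over 3 other scalings and dashed lines at 2-fold. GPRC5D (2.07) and 1 SLAMF7 probe set (1.08) lie past 2-fold, and triangles mark 2 FCRL5 probe sets whose true ratio may be lower.

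FCRL5 was weak on both arrays. Its only probe set above both floors, 224406_s_at, was lower with pDCs, at 216 against 291 alone (log2 -0.43). On 224405_at the signals were 86.9 with pDCs and 147 alone, and on 224404_s_at they were 17.8 with pDCs and 180.0 alone. With the floor in place of the lower signal, these were at least 1.27-fold and at least 1.55-fold lower. Both passed the floor only in MM.1S cells alone, so their negative sign was fixed by that filter. The 2 probe sets below both floors had 17.5 and 31.0 with pDCs, against 23.0 and 116 alone. All 5 signals were smaller in co-culture, though 4 of them were below the floor there.

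Among its relatives, 2 genes were past 2-fold lower and the others were near the floor. Of 6 other Fc receptor-like genes with a probe set, 5 were above the floor on at least 1 array. Of these, 0 were positive and 5 negative, with a median log2 ratio of -0.43, while 53.3% of all genes had a negative ratio. FCRL1, FCRL2 and FCRLB fell under the floor with pDCs, so the filter fixed their negative sign. Only FCRLA and FCRL3 had both signals over the floors, so the count does not show a direction shared by the family. FCRL1, FCRL2 and FCRL3, whose ratio or bound was not past 2-fold, are named after their values were seen. FCRL3 had a ratio of -0.11 (-0.0065 after loess). FCRL1 and FCRL2 gave only bounds, of -0.29 or lower (54.5 with pDCs, 141 alone) and -0.43 or lower (105 with pDCs, 156 alone). By gene, with 1 probe set each, 4.51% of 14408 genes were 2-fold lower and 3.16% were 2-fold higher. FCRLA and FCRLB, both intracellular members of the family, were past 2-fold. FCRLA, found in the endoplasmic reticulum of B-lineage cells, had 1885 with pDCs and 5379 alone on its brightest probe set (log2 -1.51). Its others had 1014 against 2349 and 987 against 2416, so all 3 FCRLA probe sets were more than 2-fold lower with pDCs. FCRLB had 70.7 with pDCs, under the floor, and 337 alone, at least 2.90-fold lower on its only probe set above the floor.

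CD46 showed no common direction. Probe set 208783_s_at had 10814 with pDCs and 11723 alone (log2 -0.12), while 207549_x_at had 813 and 716 (0.18) and 211574_s_at had 382 and 301 (0.34). It was the only member with probe sets of both signs. Of the 6 members with 2 or more probe sets above the floor, 5 had a single sign, as did 57.1% of all genes with 2 such probe sets and 35.2% of genes with 3. For FCRL5, 2 of the 3 signs were fixed, since those probe sets passed the floor only in MM.1S cells alone. Among other regulators of complement, 6 of 8 genes with a probe set were above the floor, 4 positive and 2 negative, with a median of 0.19. On the brightest probe sets 0 ratios or bounds were past 2-fold. Of all genes 46.7% were positive, 3.16% were 2-fold higher and 4.51% 2-fold lower. C4BPA, named after its values were seen, gave only a bound, of -0.70 or lower (30.3 with pDCs, 188 alone). The filter fixed its negative sign. CD59, which blocks the membrane attack complex, had 16456 with pDCs and 10407 alone (log2 0.66) on its brightest probe set and from -0.21 to 0.68 on its 4 others. CLU (clusterin) had 4831 with pDCs and 3783 alone (log2 0.35) on its brightest probe set and from -0.49 to 0.52 on its 3 others.

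**Figure D3:**
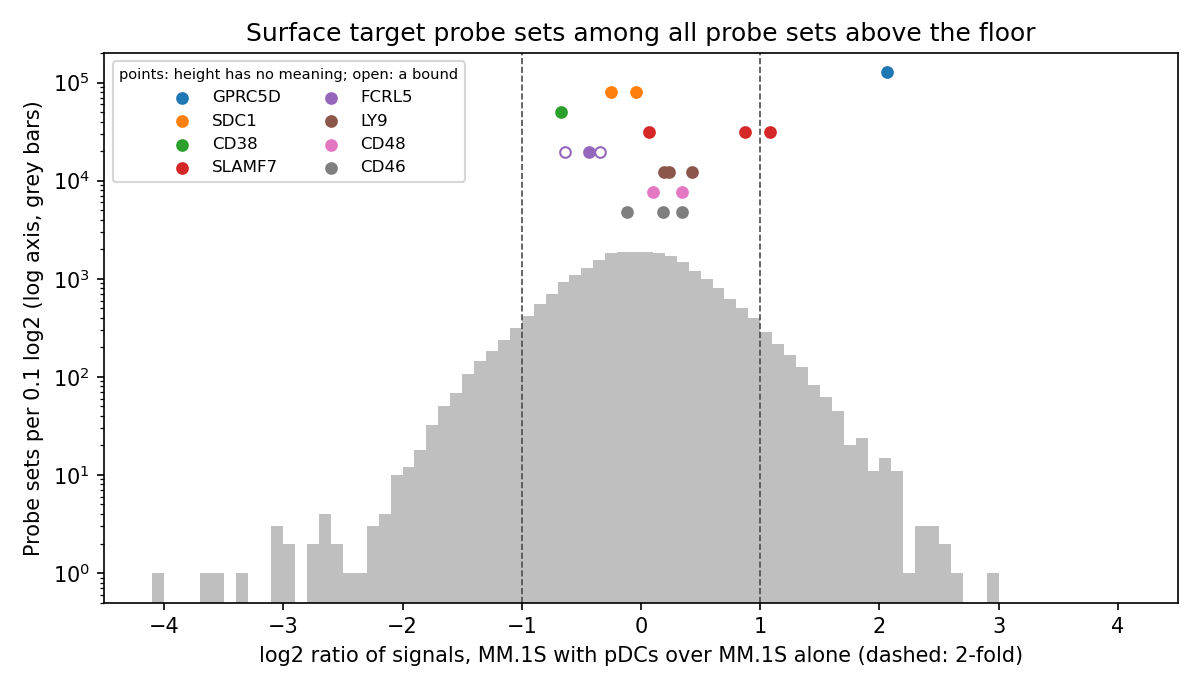
Histogram (log axis) of log2 ratios, MM.1S with pDCs over MM.1S alone, of all 25795 probe sets above the floor on at least 1 array, with the 18 member probe sets as coloured points above it (open points are bounds) and dashed lines at 2-fold. GPRC5D lies in the far upper tail, and most members lie in the broad centre.

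Other surface proteins targeted or studied in myeloma were split. Of 21 with a probe set, 19 were above the floor, 11 with a positive and 8 with a negative ratio. Over all 14408 genes 46.7% had a positive ratio. The median was 0.17 for this list, against -0.04 over all those genes. The chemokine receptor CCR10 had 1288 with pDCs and 525 alone (2.45-fold higher). CD70, a ligand of CD27, had 1229.8 with pDCs and 3129 alone (log2 -1.35). ICAM1, an adhesion ligand of leukocyte integrins, had 1325 with pDCs and 2846 alone (log2 -1.10), with -1.05 and -0.43 on its other probe sets. Thus 1 gene of this list was 2-fold higher and 2 were 2-fold lower, while 3.16% of all genes were 2-fold higher and 4.51% 2-fold lower. CD27, named after its values were seen, gave only a bound, of -0.87 or lower (29.3 with pDCs, 211 alone).

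**Figure D4:**
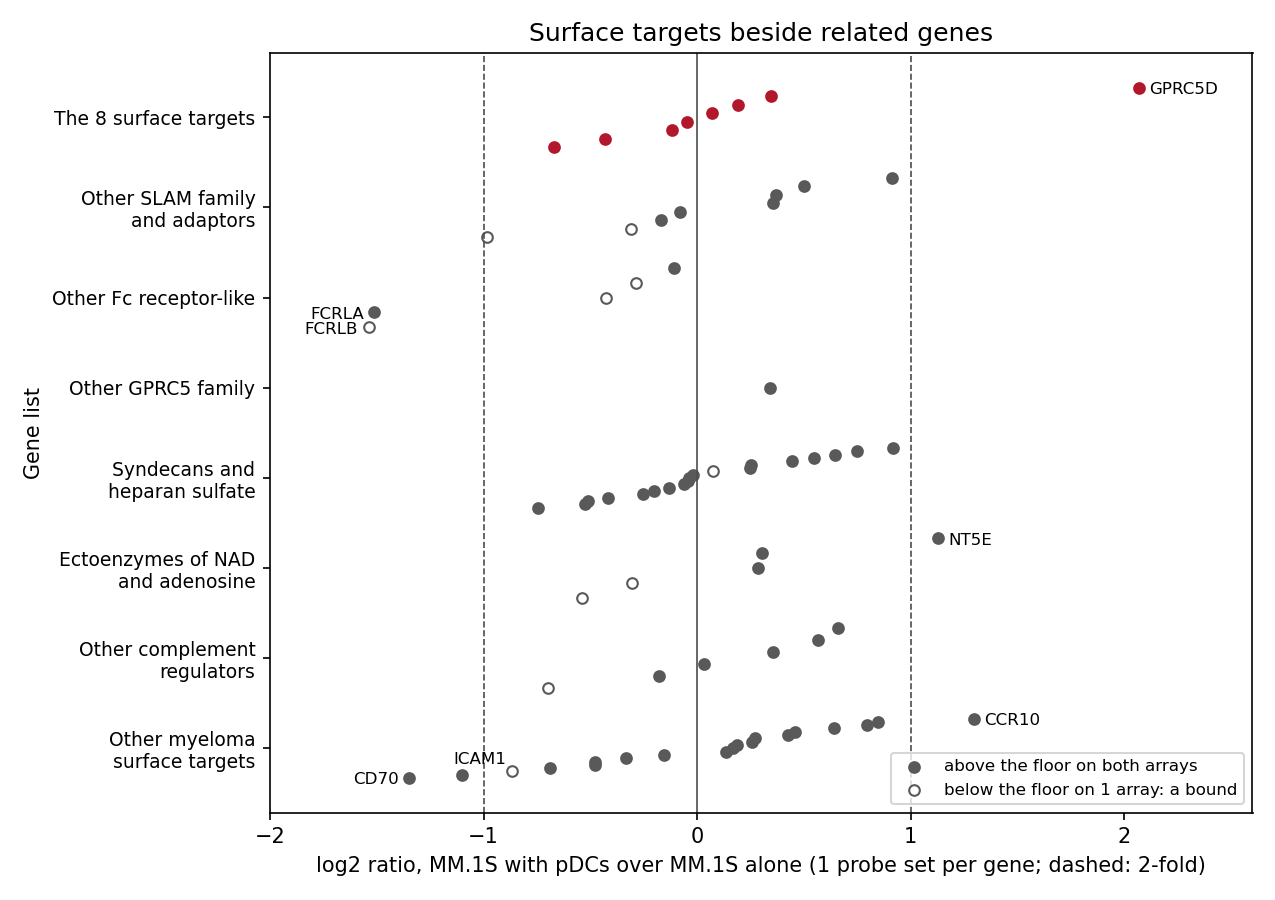
Log2 ratio, MM.1S with pDCs over MM.1S alone, of the 8 surface targets and of each gene of 7 related lists, with 1 probe set per gene (the brightest), open points for bounds and dashed lines at 2-fold. GPRC5D, NT5E and CCR10 lie past 2-fold on the higher side and FCRLA, FCRLB, CD70 and ICAM1 on the lower side.

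Both arrays carried the transcripts of plasma cells: all 7 markers apart from the members were above the floor on both arrays, at summed signals of 184495 with pDCs and 193905 alone. Their single log2 ratios were 0.83 for JCHAIN, 0.46 for TNFRSF17 (BCMA) and 0.07 for IRF4, and -0.47 for PRDM1, -0.48 for XBP1, -0.49 for POU2AF1 and -0.67 for MZB1. B cell markers were dim, with summed signals of 1077 with pDCs and 1184 alone over 5 genes. Of these, 2 had a positive and 3 a negative ratio, with a median of -0.33. MS4A1 (CD20) had 226 with pDCs and 131 alone, and its other probe sets were below the floor on both arrays. BACH2 was 2.03-fold higher (298 with pDCs, 147 alone). Named after their values were seen, CD22 had -0.33, CD79A -0.55 and PAX5 -0.83 or lower.

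SLAM receptors, CD38 and CD48 are also made by other leukocytes, and in RNA of a whole culture the number of cells of a type and the RNA per cell cannot be told apart. Of 11 pDC markers with a probe set, 5 were above the floor with pDCs and 6 alone, with summed signals of 5879 with pDCs and 7533 alone over the brightest probe set of each, or 2311 and 3133 without TCF4. TCF4, a transcription factor that B-lineage cells also make, is named after its values were seen: its brightest probe set had 3569 with pDCs and 4400.4 alone, but 6 of its 7 others above the floor were higher with pDCs, among them 1 at 2915 against 1392. The defining pDC markers CLEC4C (61.4 with pDCs, 6.43 alone) and IL3RA (29.0 and 21.1) were below the floor on both arrays, and LILRA4 had 306 and 256. GZMB, the only pDC marker past 2-fold on its brightest probe set, had 174 with pDCs and 604 alone. On other probe sets TCF4 reached a log2 ratio of 1.07, and PTCRA, also named after its values were seen, 1.04 (349 with pDCs, 169 alone). Of 8 monocyte markers, 3 were above the floor with pDCs and 5 alone, with summed signals of 562 and 1568, LYZ at 17.0 and 711 and CD14 at 26.9 and 139. The other LYZ probe set was below the floor on both arrays, at 74.0 with pDCs and 114 alone. FCN1 and CD163, named after their values were seen, went the other way on their brightest probe sets. FCN1 had 123 with pDCs and 62.6 alone, and CD163, below both floors, had 81.6 and 23.1. T cell markers summed to 1669 with pDCs and 1133 alone over 6 genes, of which TRAT1 gave 1265 and 630.1 while CD3E was below the floor on both. NK cell markers summed to 918 with pDCs and 1096 alone over 6 genes. Of the 4 above the floor on their brightest probe sets, 3 had a negative ratio, and the median was -0.51. The 1 with a positive ratio was NCAM1, at 478 and 396, which was also among the other myeloma surface targets. The 3 other NCAM1 probe sets above the floor ran from -0.40 or lower up to 0.98. KLRD1, named after its values were seen, had -0.37 on its brightest probe set but 0.64 or higher on another (193 with pDCs, 89.4 alone). Platelet and red cell markers summed to 2152 and 2828 over 4 genes, with PPBP at 30.6 with pDCs and 957 alone. The other genes of this list are named after their values were seen. HBB, the brightest with pDCs, went the other way on its brightest probe set, at 2042 with pDCs and 1809 alone (log2 0.18). Its 3 others ran from -0.09 to 0.34. PF4 and GP9 were below the floor on both arrays. The lower sum with pDCs thus rested on PPBP, read by 1 probe set. The part of other cells in the members' ratios was not tested. RNA quality differed too: the 3' to 5' signal ratio of the ACTB controls was 8.09 with pDCs and 19.5 alone, and that of GAPDH 2.46 and 3.07, and its part in the ratios was not tested.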

How the data were processed

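The deposited values are linear signal intensities, 1 per probe set and array, from biotin-labelled RNA. MAS5 is named in the submitters' processing notes, while its version and any detection call were not used here. The arrays share a mean of 500.1 once 2% of the signals are trimmed at either end, so a shift common to most transcripts would not show. Groups came from the sample titles.

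In the array annotation 41091 probe sets had 1 symbol, 1801 had several and 11721 had none, besides 62 controls. RefSeq genes matched 41031 of the first kind by gene identifier. In gene lists, a gene stood as its brightest probe set, that with the highest mean log2 signal. The number of arrays limits the precision.

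Members and lists were chosen with earlier results of these data known. The naming rule took all 8 members with every probe set, up to 3 genes per list past 2-fold or else the 2 brightest, all plasma cell markers, and a defining marker or more of each other cell type. Exceptions are marked in the text. Other settings tried were 3 scalings (median centring, quantile, and loess with span 0.3), no floor or one at the 30th or 70th percentile, thresholds of 1.5-fold and 3-fold, no x_at or s_at probe sets, whose probes can match several transcripts, and 1 value per gene. The calculation was tested on simulated data, with Python 3.11.15, numpy 2.4.6, pandas 2.3.3 and statsmodels 0.14.6.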

Additional observations from a re-analysis of the deposited data

How the results depend on the processing

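The 2 member probe sets at least 2-fold higher with pDCs numbered 2 under each of the 3 other scalings and each other floor. Over all probe sets the share higher was 4.53% to 4.71% under those scalings and 2.49% with a floor at the 70th percentile, but 10.9% with one at the 30th percentile and 15.4% with none, so 2 of 19 and 2 of 20 members were then no more than the background. Their number was 1 without x_at and s_at probe sets, 1 at a threshold of 3-fold, and 1 by gene, whether by the brightest probe set or by the mean over probe sets. That 1 was GPRC5D each time, whose log2 ratio ran from 2.05 to 2.10 over 6 other settings. The SLAMF7 call rests on 219159_s_at (1.06 to 1.12 over the same settings). No member was 2-fold lower at the main floor, but 2 FCRL5 probe sets were with a floor at the 30th percentile and 2 with no floor, where 224404_s_at reached -2.07 and -3.34. At those floors 12.5% and 16.8% of all probe sets were 2-fold lower, so these counts too were no more than the background. At 1.5-fold, 3 member probe sets were higher and 2 were lower, 1 of CD38 and 1 of FCRL5. The FCRL5 one, 224404_s_at, passed the floor only in MM.1S cells alone, so the filter fixed its sign. Of the 18 member probe sets 13 lay within 1.5-fold, as did 70.9% of all probe sets. The members' median log2 ratio was 0.011 by brightest probe set per gene and 0.14 over probe sets. No member ratio turned its sign under the 3 other scalings, which moved the median of all probe sets to between 0.01 and 0.02, against -0.02. No paired analysis was possible because each group had 1 array without a replicate number. With 1 array per group, the spread between cultures is unknown, and low FCRL5 signals give bounds more than ratios.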
